A study of Mus musculus with 10 samples.

Results

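Collagens are the main structural proteins of skin, and the 44 genes described here encode their chains. They were chosen by name, as every mouse symbol of the form Col, a number, the letter a and a number whose read counts summed to 10 or more over all libraries. All 44 such symbols among the 47729 genes of the count table met the count rule, the lowest being Col10a1 with 43 reads. Of these, 40 passed the filter on low counts and were tested, and Col9a2, Col10a1, Col9a1 and Col6a4 did not, with 99, 43, 69 and 108 reads in all. By class, the rule holds 11 fibrillar chains, 6 of basement membrane, 9 of fibril-associated collagens with interrupted helices (FACIT), 6 of beaded filaments, 4 transmembrane chains and 8 others.

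RNA was sequenced from skin of male C57BL/6 mice, an inbred strain in common use, with 5 libraries labelled 24 months and 5 labelled 9 months. No treatment and no genetic change is named for either age. The series' own design text instead puts the younger mice at 2 months, and nothing measured here settles which is right. Titles carry a separate number each, taken here to mean that every library came from another animal. The body site is not given in the sources used here, and whole skin mixes epidermis, follicles, dermis, fat, muscle, vessels and blood cells.

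Collagen chains wind around each other into a triple helix, which the cell hydroxylates, folds and secretes before enzymes trim and cross-link it. Fibrillar collagens of types I and III, made by dermal fibroblasts, give the dermis its tensile strength, and type V sits inside the same fibrils and limits their width. Types IV, VII and XVII lie at the border of epidermis and dermis, type VI forms fine filaments around cells, and FACIT collagens coat the fibril surface. In bulk tissue, fewer cells of a type and less RNA per cell cannot be told apart, and this touches every level that follows.

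Total counts ranged from 31556025 to 40766879 reads at 24 months and from 29324259 to 55976007 at 9 months. Keratinocyte markers (10 of 10 found) summed to 11702 to 21960 CPM at 24 months and 11594 to 24288 CPM at 9 months, where CPM is a read count relative to 1000000 reads of the library total after TMM scaling, which sets libraries level by a trimmed mean of log ratios. Several libraries stood apart. Growing-hair markers (17 of 18 found) summed to 60.7 to 149 CPM at 24 months, against 77.6 to 408 CPM in 9 months replicates 1 to 3 and 10943 and 32328 CPM in replicates 4 and 5 of that age. White adipocyte markers (12 of 12 found) summed to 28330 CPM in 24 months replicate 1, with 5331 to 7865 CPM in the other 24 months libraries and 4999 to 10119 CPM at 9 months. Of the dermal fibroblast markers 12 of 12 were found, 3 of them also in the list of fibril partners below. They summed to 1806 and 1224 CPM in 24 months replicates 1 and 2. Replicates 3 to 5 of that age had 3060 to 4157 CPM, against 2598 to 3756 CPM at 9 months. In the age comparison below, 12 of 12 had a negative log2 fold change, beside 51.6% of all genes tested. Their median was -0.31, from -0.80 for Lum to -0.04 for Pdgfrb, and 0 were lower at an unadjusted p under 0.05. B cell markers (6 of 6 found) summed to 319 CPM in 24 months replicate 1. The other 24 months libraries had 11.9 to 85.1 CPM, and those of 9 months 8.11 to 27.3 CPM. Fits with the growing-hair or adipocyte list as a covariate are given below, and the part of the other cell types in the collagen results was not tested.

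Collagen RNA made up a smaller part of the library at 24 months, and type I and type III chains accounted for most of the gap. Reads of the 44 genes were 0.276, 0.395, 0.759, 0.634 and 0.733% of all counts in 24 months replicates 1 to 5, against 0.862, 1.19, 1.26, 0.920 and 1.03% in 9 months replicates 1 to 5, so the ages did not overlap. Per kilobase of gene length, the fibrillar class was 18.5, 10.1, 48.0, 40.5 and 54.6% of the collagen total in the 24 months libraries and 62.2 to 66.3% in the 9 months libraries. The chain with the most reads per kilobase outside that class was Col17a1, which spans the membrane of keratinocytes. Col17a1 alone was 45.8 and 66.6% of the total in 24 months replicates 1 and 2 and 24.0 to 35.4% in the other 24 months libraries, against 12.3 to 21.6% at 9 months. A share also rises when the rest of the total falls. In CPM, Col17a1 was at 1088 and 2259 in 24 months replicates 1 and 2, against 885 to 1817 at 9 months.

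**Figure D1:**
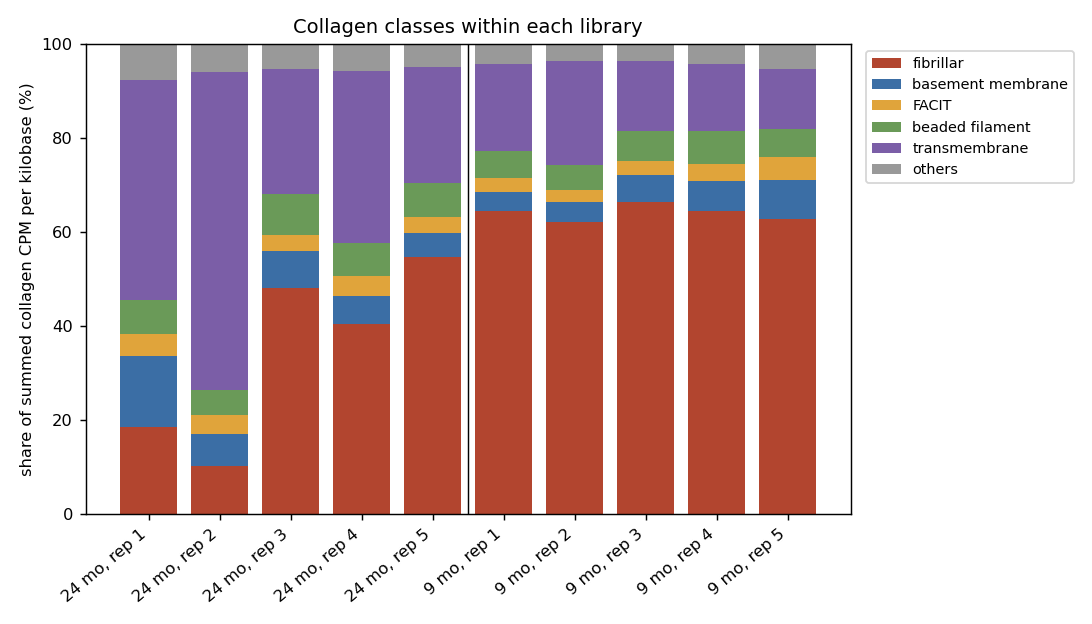
Stacked bars give the share of each collagen class, in percent of the summed CPM per kilobase of all 44 genes, in each of the 10 libraries. The fibrillar part fills 10.1 to 54.6% of the 24 months bars and 62.2 to 66.3% of the 9 months bars, and it is smallest in 24 months replicates 1 and 2.

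The comparison asks how collagen expression differs between the ages. No collagen gene, and no gene at all, passed the threshold. By the quasi-likelihood F test of edgeR, adjusted by the method of Benjamini and Hochberg over 17668 genes, 0 genes had an adjusted p under 0.05, a background of 0% called, with 1169 higher and 1139 lower at an unadjusted p under 0.05. At that level, 14 of the 40 collagen genes tested were lower and 0 were higher at 24 months, where 6.45% of all genes tested were lower and 6.62% higher. The median log2 fold change, 24 months over 9 months, was -0.50 over the 40 genes and -0.01 over all genes tested, with 31 and 9110 of them negative (77.5 and 51.6%). DESeq2 called 3 collagen genes lower, Col11a1, Col12a1 and Col8a2 (adjusted p = 0.000861, 0.0324 and 0.0374), and 2.42% of the genes to which it gave an adjusted p, out of 916 genes called in either direction. Limma-voom called 0 genes of any kind, or 3 with library quality weights, none of them a collagen gene. Without those weights it had 17 collagen genes lower at an unadjusted p under 0.05, beside 845 of all 17668 genes. With them it had 15, beside 881 of 17668. For 4 of the 40 genes, 10.0%, every 24 months library lay below every 9 months library, as it did for 1.23% of all genes tested, and for 0 did every 24 months library lie above, against 1.66%.

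These counts rest in part on a few libraries. The highest of the 10 libraries was 9 months replicate 3 for 18 of the 40 genes and 9 months replicate 5 for 11. How often each was the highest over all genes was not counted. 24 months replicates 1 and 2 were the lowest pair of the 10 libraries for 14 of the 40 genes, and for 5.99% of all genes tested. Without them the collagen median was -0.30 and 7 of the 14 genes remained lower at an unadjusted p under 0.05 (background 3.62%). That pair was picked with its low collagen known. Without 9 months replicates 4 and 5, the libraries high in growing-hair markers, the median was -0.35 and 8 of the 14 remained (background 4.14%), and once the mean log2 CPM of that list in each library entered the fit (the growing-hair covariate) it was -0.23 and 5 remained, Col1a1, Col1a2, Col3a1, Col5a1 and Col8a2 (background 8.75%). With the white adipocyte list used likewise the median was -0.47 and all 14 remained among 17 (background 6.04%). The growing-hair covariate was 0.82 to 2.45 at 24 months and 1.22 to 9.92 at 9 months, so it cannot be fully told apart from age. Of the genes lost with it, Col5a2, Col5a3 and Col15a1 had log2 fold changes of -0.77, -0.75 and -0.84, no nearer to 0 than before. The others lost, Col6a3, Col11a1, Col12a1, Col16a1, Col18a1 and Col26a1, moved toward 0.

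**Figure D2:**
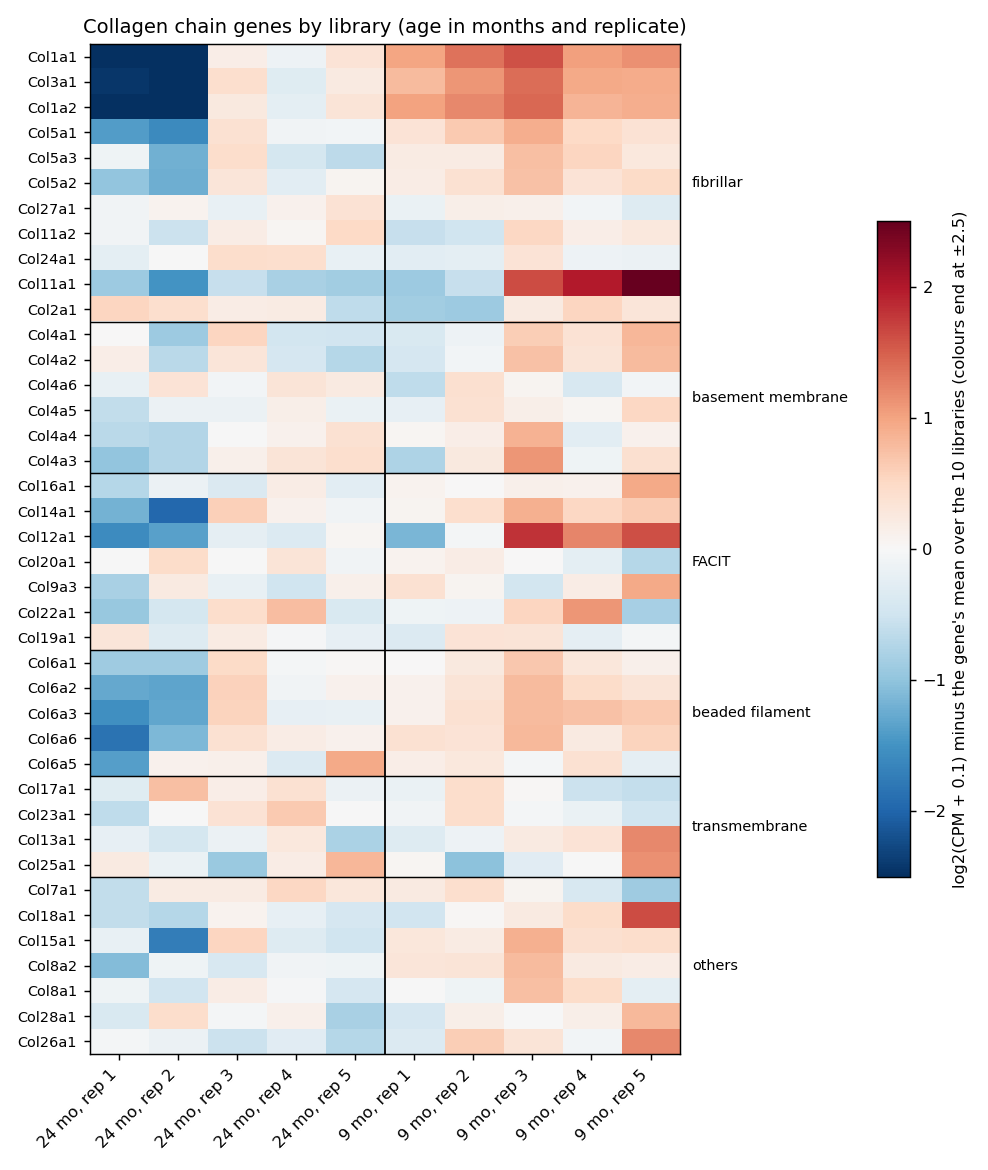
Colours give log2(CPM + 0.1) minus the mean of the gene over the 10 libraries, for the 40 collagen genes tested (rows, by class) in each library (columns, 24 months left of the line and 9 months right of it), with colours ending at ±2.5. Col1a1, Col1a2 and Col3a1 are darkest blue in 24 months replicates 1 and 2, and Col11a1 and Col12a1 are red in 9 months replicates 3 to 5.

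Type I and type III chains showed the widest gap among abundant collagen genes. Col1a1, the alpha1 chain of type I collagen (ENSMUSG00000001506, chromosome 11, 94936224 to 94953042, plus strand, GRCm38), was at 114, 111, 1192, 974 and 1347 CPM in 24 months replicates 1 to 5, against 2107, 2738, 3216, 2170 and 2366 CPM in 9 months replicates 1 to 5. 24 months replicates 1 and 2 were far below the other older mice, which in turn lay below all the younger ones. The highest 24 months library exceeded the lowest 12.1 times, and at 9 months this ratio was 1.53. The log2 fold change was -1.75 ± 0.64 (SE, 5 libraries a group; edgeR adjusted p = 0.254). Without 24 months replicates 1 and 2 it was -1.11.

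Col1a2, the alpha2 chain of the same molecule (ENSMUSG00000029661, chromosome 6, 4504814 to 4541544, plus strand), had the same order of libraries at its low end, with 170, 151, 1393, 991 and 1467 CPM at 24 months, against 2346, 2672, 3160, 2110 and 2200 CPM at 9 months. The log2 fold change came to -1.58 ± 0.58 (SE, 5 libraries a group; edgeR adjusted p = 0.258). Col3a1, the chain of type III collagen, which forms fine reticular fibrils with type I (ENSMUSG00000026043, chromosome 1, 45311538 to 45349706, plus strand), was at 185, 121, 1341, 811 and 1170 CPM at 24 months, against 1745, 2159, 2642, 1929 and 1903 CPM at 9 months. Again the pair of low libraries lay far under the others and the ages did not overlap. For Col3a1 the log2 fold change was -1.52 ± 0.56 (SE, 5 libraries a group; edgeR adjusted p = 0.264). Without that pair the log2 fold changes were -0.96 for Col1a2 and -0.91 for Col3a1. Per kilobase, Col1a1 averaged 114 CPM at 24 months and 384 at 9 months, Col3a1 73.9 and 211, and Col1a2 67.2 and 201.

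The promoters of Col1a2 and Col3a1 are shown because both genes kept the ages apart, with those of Col8a2, which did so too, and of Col17a1, which did not. A RefSeq promoter (GRCm38.p6, 250 bases before to 50 after the start) was found for 35 of the 44 genes. Col1a1, Col2a1, Col4a3, Col5a2, Col9a3, Col12a1, Col14a1, Col22a1 and Col26a1 had no entry. Only bases before the start and outside annotated exons are printed, so that the stretch of Col1a2 stops short of its RefSeq start and lies inside the longer gene span of the count table's annotation, and capitals mark CCAAT or TATAAA or GGGCGG on either strand.
Col1a2 (chr6:4505370-4505492, plus strand): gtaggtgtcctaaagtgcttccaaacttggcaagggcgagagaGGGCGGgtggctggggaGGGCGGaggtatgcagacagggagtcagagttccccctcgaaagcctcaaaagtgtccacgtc
Col3a1 (chr1:45311288-45311537, plus strand): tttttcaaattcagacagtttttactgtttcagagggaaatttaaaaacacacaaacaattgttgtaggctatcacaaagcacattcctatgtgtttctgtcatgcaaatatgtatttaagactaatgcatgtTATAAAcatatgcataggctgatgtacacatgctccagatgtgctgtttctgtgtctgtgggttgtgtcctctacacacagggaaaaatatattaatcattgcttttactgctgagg
Col8a2 (chr4:126286544-126286792, plus strand): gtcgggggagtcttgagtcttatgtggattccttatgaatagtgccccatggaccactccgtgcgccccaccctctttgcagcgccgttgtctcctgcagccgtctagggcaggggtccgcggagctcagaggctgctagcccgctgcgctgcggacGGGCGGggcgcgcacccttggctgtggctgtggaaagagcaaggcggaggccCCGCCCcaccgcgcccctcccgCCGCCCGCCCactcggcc
Col17a1 (chr19:47692095-47692292, minus strand): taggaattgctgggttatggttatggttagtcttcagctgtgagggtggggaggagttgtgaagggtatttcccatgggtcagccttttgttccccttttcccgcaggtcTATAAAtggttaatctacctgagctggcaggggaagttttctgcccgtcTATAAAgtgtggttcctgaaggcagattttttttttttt
Col3a1 holds TATAAA at -117 from its start, and Col17a1 holds it at -140 and -91. GGGCGG stands at -205 and -188 of Col1a2 and at 4 places in Col8a2, the last 2 of which overlap. In the full 300-base windows, CCAAT was found on either strand in 13 of 38 collagen promoters (34.2%) and 37.4% of all 32851 in the table, TATAAA in 13.2 and 13.6%, and GGGCGG in 60.5 and 35.7%. These are matches of letters and were not set against the levels by any test.

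The minor chains of the same fibrils differed less. Col5a1, the alpha1 chain of type V collagen, stood at 43.6, 38.1, 151, 109 and 110 CPM at 24 months, against 146, 182, 217, 162 and 148 CPM at 9 months. Col5a2, its partner alpha2 chain, stood at 64.0, 54.5, 157, 106 and 134 CPM at 24 months, against 146, 166, 212, 161 and 178 CPM at 9 months. Col5a3, a chain found in some type V molecules, had 86.3, 40.8, 127, 69.1 and 59.7 CPM at 24 months, against 108, 108, 157, 135 and 113 CPM at 9 months. 24 months replicates 1 and 2 were the lowest pair for Col5a1 and Col5a2, whereas for Col5a3 24 months replicate 1 was the second highest of the older mice. In all 3 genes 24 months replicate 3 lay within the younger range. The log2 fold changes were -0.92 ± 0.34 (SE), -0.74 ± 0.27 (SE) and -0.70 ± 0.26 (SE), with edgeR adjusted p = 0.263, 0.254 and 0.263. Without 24 months replicates 1 and 2 they were -0.47, -0.39 and -0.54.

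Col11a1, a chain of the thin fibrils of cartilage that can also join type V (ENSMUSG00000027966, chromosome 3, 114030540 to 114220718, plus strand), had the lowest fold change of the 40 genes and another order of libraries. It stood at 0.739, 0.460, 0.952, 0.803 and 0.769 CPM at 24 months, against 0.740, 0.964, 4.78, 6.13 and 8.91 CPM at 9 months. 9 months replicates 3, 4 and 5 were high, while 9 months replicates 1 and 2 lay within the 24 months range or at its upper edge. Between ages the log2 fold change was -2.53 ± 0.62 (SE, 5 libraries a group; edgeR adjusted p = 0.163), and -1.53 without 9 months replicates 4 and 5 and -0.92 with the growing-hair covariate. Cartilage markers (6 of 6 found, of which Acan, Matn1 and Matn3 failed the filter) summed to 15.9 to 41.8 CPM at 24 months and 36.4 to 118 CPM at 9 months. Most of each sum was Sox9, at 12.8 to 37.2 CPM at 24 months and 27.2 to 113 CPM at 9 months. Sox9 was highest in 9 months replicate 5, the library with most growing-hair markers, so the sum is a poor measure of cartilage. Comp was at 20.3 and 12.7 CPM in 9 months replicates 3 and 4, which were also high in Col11a1. It was at 2.37 CPM in 9 months replicate 5 and at most 4.73 CPM in the other libraries. Acan reached at most 2.58 CPM, in 9 months replicate 5, and Matn1, Matn3 and Hapln1 at most 0.467 CPM. The part of these markers in the level of Col11a1 was not tested.

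Of the fibrillar chains left, none was lower at an unadjusted p under 0.05. Col27a1 and Col24a1, fibrillar chains of later discovery with a shorter helix, had log2 fold changes of 0.12 ± 0.16 (SE) and 0.19 ± 0.23 (SE), Col11a2, a partner of Col11a1, 0.02 ± 0.27 (SE), and Col2a1, the main chain of cartilage, 0.23 ± 0.44 (SE). Col27a1 averaged 12.1 ± 1.85 CPM at 24 months and 11.1 ± 1.55 CPM at 9 months (SD, n = 5 each). The ages overlapped in all 4, with Col24a1 at 1.73 to 2.85 CPM at 24 months and 1.69 to 2.66 CPM at 9 months, and Col11a2 at 2.41 to 4.98 CPM at 24 months and 2.33 to 5.09 CPM at 9 months. Col2a1 reached at most 0.450 CPM in any library. As a class, 7 of 11 fibrillar genes were lower at an unadjusted p under 0.05 (background 6.45%), and the median log2 fold change was -0.74. Without 24 months replicates 1 and 2 the count was 5 and the median -0.47 (background 3.62%). Without 9 months replicates 4 and 5 they were 7 and -0.76 (background 4.14%). With the growing-hair covariate they were 4 and -0.77 (background 8.75%).

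**Figure D3:**
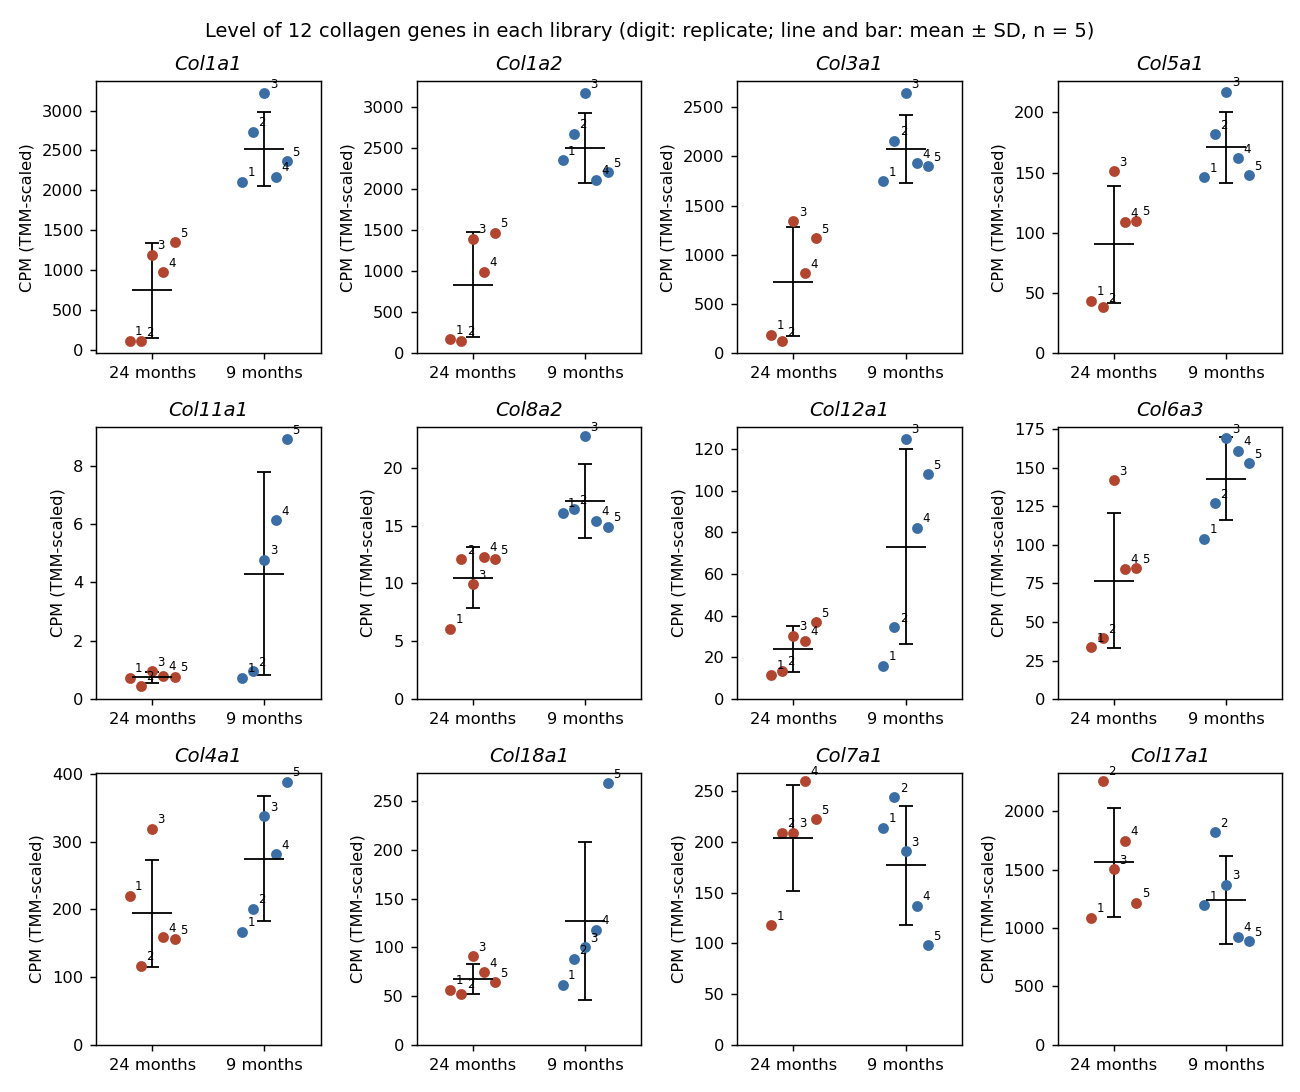
Points give the level of 12 collagen genes in CPM in each library, marked by replicate, with the mean and SD of the 5 libraries of each age, 24 months left and 9 months right. Col1a1, Col1a2, Col3a1 and Col8a2 show no overlap between ages, and 24 months replicates 1 and 2 stand near 0 for the type I and III chains.

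Within type I and type VI collagen the chains differed between ages by unequal amounts. A ratio within a library does not depend on the scaling between libraries. Type I collagen usually holds a pair of alpha1 chains and a single alpha2 chain, and the count ratio of Col1a2 to Col1a1 was 1.49, 1.36, 1.17, 1.02 and 1.09 at 24 months, against 1.11, 0.976, 0.983, 0.973 and 0.930 at 9 months. 24 months replicates 1 and 2 had the highest ratios, that is, Col1a1 was further down than Col1a2. The difference in mean log2 ratio was 0.29 (two-sided exact permutation p = 0.0238, adjusted p = 0.0476 over the 6 ratios tested, where 252 splits allow no p under 0.00794). The ratio of Col3a1 to Col1a1 was 1.63, 1.09, 1.12, 0.833 and 0.869 at 24 months, against 0.828, 0.788, 0.822, 0.889 and 0.805 at 9 months. It was close to constant in the younger mice and spread in the older ones, with a difference of 0.38 (exact permutation p = 0.0397, adjusted p = 0.0595). For Col5a2 to Col5a1 the difference was 0.26 (exact permutation p = 0.0952, adjusted p = 0.114).

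Type VI collagen joins alpha1 and alpha2 chains with a long alpha3 chain, and here the differences had the other sign. Col6a2 over Col6a1 was 0.537, 0.518, 0.747, 0.680 and 0.731 at 24 months, against 0.750, 0.735, 0.762, 0.791 and 0.796 at 9 months, a difference of -0.27 (exact permutation p = 0.0159, adjusted p = 0.0476). 24 months replicate 3 lay within the 9 months range and the other 4 libraries of that age below it. Col6a3 over Col6a1 was 0.366, 0.426, 0.594, 0.514 and 0.485 at 24 months, against 0.608, 0.629, 0.623, 0.777 and 0.820 at 9 months. Every 24 months library lay below every 9 months library, and the difference was -0.54 (exact permutation p = 0.00794, the smallest these splits allow, adjusted p = 0.0476). Col4a2 over Col4a1, the type IV pair, differed by -0.02 (exact permutation p = 0.810, adjusted p = 0.810), with a log2 SD of 0.22 at 24 months and 0.07 at 9 months. The calls for Col1a2 over Col1a1 and for both type VI ratios stood close to the threshold. They ended when any 9 months library was left out (adjusted permutation p = 0.0714 to 0.111). Both type VI calls held when any 24 months library was left out. Fewer splits are possible without a library of either age. The call for Col1a2 over Col1a1 also ended without 24 months replicate 1, 2 or 3, while Col3a1 over Col1a1 passed without 24 months replicate 4 or 5. Without 24 months replicates 1 and 2, the differences were 0.13 for Col1a2 over Col1a1, -0.09 for Col6a2 over Col6a1 and -0.37 for Col6a3 over Col6a1.

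**Figure D4:**
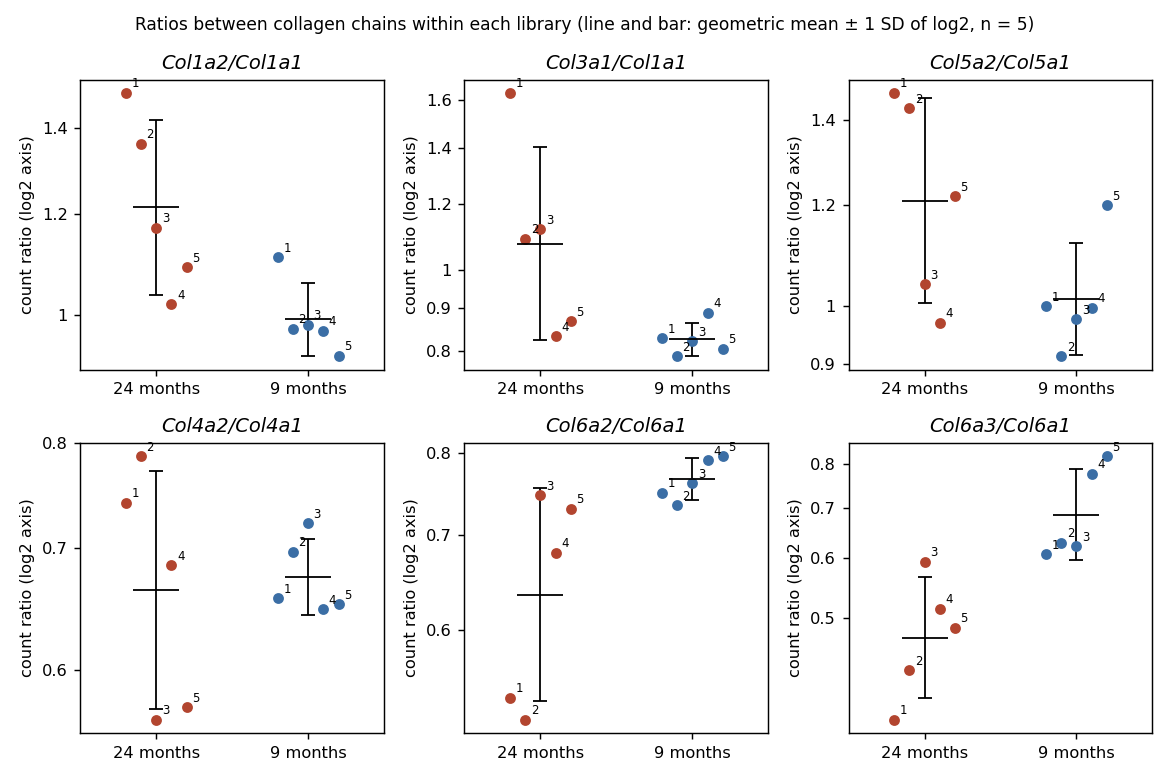
Points give the count ratio of paired collagen chains in each library on a log2 axis, with the geometric mean and 1 SD of the log2 ratio for the 5 libraries of each age, 24 months left and 9 months right. The Col6a3 to Col6a1 ratio shows no overlap between ages, at 0.366 to 0.594 for 24 months and 0.608 to 0.820 for 9 months.

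The 3 main beaded filament chains were lowest in 24 months replicates 1 and 2. Col6a1 (ENSMUSG00000001119, chromosome 10, 76708792 to 76726168, minus strand) was at 91.8, 92.2, 239, 165 and 175 CPM at 24 months, against 171, 202, 271, 207 and 187 CPM at 9 months. Col6a2, its neighbour on the same chromosome, stood at 49.3, 47.8, 178, 112 and 128 CPM at 24 months, against 128, 148, 207, 164 and 149 CPM at 9 months. For both genes 24 months replicates 3 to 5 reached into or lay next to the younger range. Col6a3, whose end is cut off as the fragment endotrophin (ENSMUSG00000048126, chromosome 1, 90765923 to 90843971, minus strand), was at 33.6, 39.3, 142, 84.5 and 84.9 CPM at 24 months, against 104, 127, 169, 161 and 153 CPM at 9 months. Their log2 fold changes were -0.45 ± 0.26 (SE), -0.63 ± 0.34 (SE) and -0.89 ± 0.34 (SE), with edgeR adjusted p = 0.511, 0.465 and 0.282, and without 24 months replicates 1 and 2 they were -0.11, -0.19 and -0.46. Col6a6, a chain related to alpha3, stood at 2.63, 4.38, 12.7, 11.0 and 10.5 CPM at 24 months, against 12.6, 12.3, 17.0, 11.3 and 14.4 CPM at 9 months, with a log2 fold change of -0.71 ± 0.37 (SE, 5 libraries a group; edgeR adjusted p = 0.452), and -0.24 without 24 months replicates 1 and 2. Col6a5, another such chain, did not share this pattern and had -0.05 ± 0.35 (SE) as its log2 fold change. It was 1.32 CPM in 24 months replicate 1 and 6.99 CPM in 24 months replicate 5, with 3.06 to 4.73 CPM at 9 months. Col6a4 failed the filter, and the median of the other 5 was -0.63, or -0.19 without 24 months replicates 1 and 2.

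Type IV collagen, the network of basement membranes, is encoded by 6 genes that lie head to head in pairs. The annotated starts of Col4a1 and Col4a2 overlap by 22 bases on chromosome 8, those of Col4a4 and Col4a3 lie 71 bases apart on chromosome 1, and those of Col4a6 and Col4a5 lie 1308 bases apart on chromosome X. The stretch between the starts of Col4a4 and Col4a3 is shown, since a single short sequence lies before both genes; it is read here in the direction of Col4a4 and holds none of the motifs above.
Col4a4 (chr1:82586850-82586920, minus strand): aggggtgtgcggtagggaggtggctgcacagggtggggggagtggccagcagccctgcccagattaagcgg
Col4a1 and Col4a2 encode the chains present in nearly all basement membranes. Col4a1 stood at 220, 117, 319, 159 and 156 CPM at 24 months, against 167, 201, 337, 281 and 388 CPM at 9 months. Col4a2 stood at 164, 92.3, 180, 109 and 89.4 CPM at 24 months, against 109, 140, 244, 182 and 253 CPM at 9 months. Both were highest in 9 months replicate 5, and 24 months replicate 1 was not low for either. The log2 fold changes were -0.50 ± 0.30 (SE) and -0.55 ± 0.27 (SE), with edgeR adjusted p = 0.520 and 0.433, and -0.11 and -0.21 with the growing-hair covariate.

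Col4a5, which pairs with Col4a6 in the basement membrane under the epidermis, stood at 19.2, 26.7, 26.7, 32.7 and 26.1 CPM at 24 months, against 25.6, 38.3, 32.6, 30.5 and 42.1 CPM at 9 months, which gave a log2 difference of -0.36 ± 0.17 (SE, 5 libraries a group; edgeR adjusted p = 0.402), and -0.18 with the growing-hair covariate. Col4a6 had a positive log2 fold change of 0.22 ± 0.20 (SE), at 32.2 to 46.5 CPM at 24 months and 23.7 to 48.7 CPM at 9 months. The ages overlapped for both. Col4a4 and Col4a3, best known from the kidney filter, had log2 fold changes of -0.36 ± 0.27 (SE) and -0.37 ± 0.38 (SE), and without 24 months replicates 1 and 2 these were -0.06 and -0.00. Both were highest in 9 months replicate 3, Col4a4 at 23.0 CPM and Col4a3 at 8.25 CPM. Elsewhere Col4a4 spanned 7.54 to 16.4 CPM and Col4a3 1.86 to 5.10 CPM. In the class as a whole, with a median of -0.37, 0 of 6 genes were lower at an unadjusted p under 0.05 (background 6.45%). The median was -0.16 without 24 months replicates 1 and 2 and -0.20 with the growing-hair covariate. With the adipocyte covariate 2 of 6 were lower at that level, Col4a2 and Col4a5 (background 6.04%).

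Among FACIT collagens, Col12a1 stood out. It encodes a collagen of fibril surfaces in dense connective tissue (ENSMUSG00000032332, chromosome 9, 79598991 to 79718831, minus strand) and was at 11.8, 13.7, 30.4, 28.0 and 36.9 CPM at 24 months, against 16.0, 34.4, 125, 82.2 and 108 CPM at 9 months. Like Col11a1 it was high in 9 months replicates 3 to 5, and 9 months replicates 1 and 2 lay within the older range. Its log2 fold change was -1.60 ± 0.52 (SE, 5 libraries a group; edgeR adjusted p = 0.209), -1.20 without 24 months replicates 1 and 2 and -0.86 with the growing-hair covariate. Col16a1, found near basement membranes and on microfibrils, stood at 76.0, 114, 97.7, 143 and 104 CPM at 24 months, against 134, 127, 137, 135 and 243 CPM at 9 months. The value of 9 months replicate 5 was far above the rest, and the log2 fold change of -0.54 ± 0.22 (SE, 5 libraries a group; edgeR adjusted p = 0.313) was -0.20 with the growing-hair covariate.

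Col14a1, a relative of Col12a1 on mature dermal fibrils, followed the type I chains in its low libraries, at 29.7 and 17.1 CPM in 24 months replicates 1 and 2, while replicates 3 to 5 had 63.4 to 101 CPM, against 70.1 to 124 CPM at 9 months. Its log2 fold change was -0.77 ± 0.39 (SE, 5 libraries a group; edgeR adjusted p = 0.438), and -0.30 without that pair. Col20a1 was the FACIT gene with a positive value, 0.26 ± 0.20 (SE). Col9a3, a cartilage chain, Col22a1, found at tissue junctions such as that of muscle and tendon, and Col19a1 had log2 fold changes of -0.50 ± 0.30 (SE), -0.25 ± 0.43 (SE) and -0.04 ± 0.29 (SE). Col20a1 stood at 8.48 to 12.4 CPM at 24 months and 5.45 to 10.2 CPM at 9 months, and Col9a3 averaged 2.24 ± 0.669 CPM at 24 months and 3.15 ± 1.16 CPM at 9 months (SD, n = 5 each). Col22a1 stood at 0.867 to 3.06 CPM at 24 months and 0.940 to 3.89 CPM at 9 months, and Col19a1 at 0.216 to 0.385 CPM at 24 months and 0.212 to 0.399 CPM at 9 months, with overlap in all 4. Of the 9 FACIT genes, Col9a1 and Col9a2 failed the filter, and the median of the other 7 was -0.50. It was -0.33 without 24 months replicates 1 and 2 and -0.27 without 9 months replicates 4 and 5, with 8 genes tested in each, and -0.20 with the growing-hair covariate. The 2 FACIT genes lower at an unadjusted p under 0.05 (background 6.45%), Col12a1 and Col16a1, did not pass it in any of these 3 fits.

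Col8a2 was the fourth gene whose ages did not overlap. It encodes a chain of the hexagonal networks of type VIII collagen (ENSMUSG00000056174, chromosome 4, 126286793 to 126314330, plus strand) and was at 6.10, 12.1, 9.92, 12.3 and 12.1 CPM in 24 months replicates 1 to 5, against 16.1, 16.4, 22.7, 15.4 and 14.9 CPM in 9 months replicates 1 to 5. Its lowest library was 24 months replicate 1, but 24 months replicate 2 lay among the other older mice. The log2 fold change was -0.70 ± 0.21 (SE, 5 libraries a group; edgeR adjusted p = 0.177), and it lay between -0.81 and -0.37 over all alternatives tried. For its partner Col8a1 the ages overlapped, at 4.41 to 7.11 CPM at 24 months and 5.24 to 10.5 CPM at 9 months, with a log2 fold change of -0.37 ± 0.23 (SE).

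Both multiplexins, collagens that carry sugar chains at basement membranes, were among the 14 genes lower at an unadjusted p under 0.05. Col18a1, the source of endostatin, stood at 56.4, 52.3, 90.9, 74.7 and 64.3 CPM at 24 months, against 61.7, 87.6, 99.9, 118 and 268 CPM at 9 months. The mean at 9 months was raised by replicate 5. Its log2 fold change of -0.91 ± 0.34 (SE, 5 libraries a group; edgeR adjusted p = 0.274) was -0.44 without that library and 0.03 with the growing-hair covariate. Col15a1, which lies around vessels and muscle fibres, had 63.2 and 21.7 CPM in 24 months replicates 1 and 2, while replicates 3 to 5 had 51.2 to 104 CPM, against 82.6 to 133 CPM at 9 months. That gave a log2 fold change of -0.74 ± 0.32 (SE, 5 libraries a group; edgeR adjusted p = 0.343), and -0.49 without that pair. Col26a1, a chain of low level here, stood at 0.321, 0.297, 0.200, 0.259 and 0.168 CPM at 24 months, against 0.247, 0.565, 0.444, 0.316 and 0.905 CPM at 9 months. 9 months replicate 5 was again the highest, and the log2 fold change of -1.02 ± 0.38 (SE, 5 libraries a group; edgeR adjusted p = 0.259) was -0.44 with the growing-hair covariate. Col28a1, known from peripheral nerve, was at 0.601 to 1.57 CPM at 24 months and 0.811 to 2.05 CPM at 9 months, and its log2 fold change was -0.30 ± 0.32 (SE).

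Col17a1 and Col7a1, collagens that join keratinocytes to the dermis, did not share the negative values of the type I, III and V chains with all libraries and no covariate. Col17a1, the transmembrane collagen of hemidesmosomes that holds basal keratinocytes to their basement membrane (ENSMUSG00000025064, chromosome 19, 47646344 to 47692094, minus strand), was at 1088, 2259, 1504, 1748 and 1216 CPM in 24 months replicates 1 to 5, against 1196, 1817, 1369, 926 and 885 CPM in 9 months replicates 1 to 5. The highest library was 24 months replicate 2, one of those lowest in type I chains. Its log2 fold change was 0.34 ± 0.26 (SE, 5 libraries a group; edgeR adjusted p = 0.653). This value was 0.17 without 24 months replicate 2, 0.09 without 9 months replicates 4 and 5 and 0.08 with the growing-hair covariate. Col7a1, the chain of the anchoring fibrils beneath that membrane (ENSMUSG00000025650, chromosome 9, 108953586 to 108984875, plus strand), was at 118, 209, 209, 260 and 222 CPM at 24 months, against 214, 244, 191, 137 and 98.2 CPM at 9 months. Its lowest values were in 9 months replicate 5 and 24 months replicate 1, and the log2 fold change of 0.20 ± 0.26 (SE, 5 libraries a group; edgeR adjusted p = 0.800) was -0.09 without 9 months replicates 4 and 5 and -0.26 with the growing-hair covariate. Col23a1, another transmembrane collagen, had a log2 fold change of 0.18 ± 0.24 (SE). Its level was 21.0 to 51.5 CPM at 24 months and 23.1 to 44.1 CPM at 9 months. The ages overlapped for all 3 genes, and a p above the threshold does not show that the ages are alike.

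The other transmembrane chains were at low levels. Col13a1, found at contacts of cells with matrix and at the nerve to muscle junction, stood at 2.06, 1.73, 2.15, 2.90 and 1.35 CPM at 24 months, against 1.90, 2.19, 2.82, 3.08 and 5.64 CPM at 9 months. 9 months replicate 5 was the highest, and the log2 fold change of -0.62 ± 0.32 (SE, 5 libraries a group; edgeR adjusted p = 0.447) was 0.03 with the growing-hair covariate. Col25a1, needed for motor innervation in mice, reached at most 0.940 CPM and had a log2 fold change of -0.05 ± 0.50 (SE). The median of the 4 transmembrane genes was 0.06, and that of the class of others, with 7 of 8 tested, was -0.70, or -0.42 without 9 months replicates 4 and 5 and -0.44 with the growing-hair covariate. The transmembrane median was 0.15 without 24 months replicates 1 and 2. The 4 genes that failed the filter stayed at trace levels, with Col9a2 at 0.128 to 0.311 CPM at 24 months and 0.166 to 0.458 CPM at 9 months, and Col10a1, the collagen of hypertrophic cartilage, at 0.0501 to 0.216 CPM at 24 months and 0.0522 to 0.139 CPM at 9 months. Col9a1 was at 0.0501 to 0.405 CPM at 24 months and 0.157 to 0.279 CPM at 9 months, and Col6a4 at 0.0481 to 0.321 CPM at 24 months and 0.0332 to 0.940 CPM at 9 months.

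**Figure D5:**
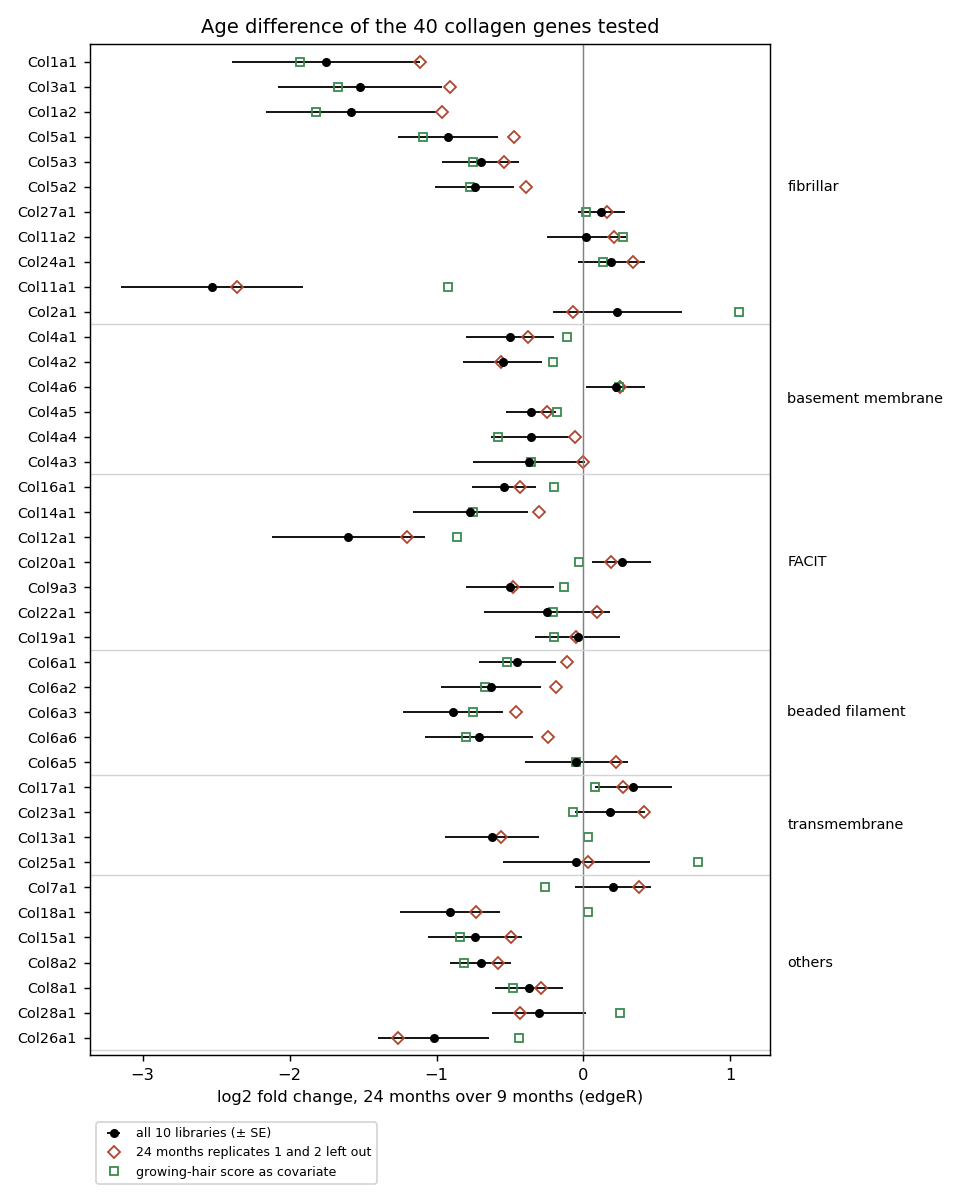
Filled points give the log2 fold change, 24 months over 9 months, of the 40 collagen genes tested with its SE, open diamonds the value without 24 months replicates 1 and 2, and open squares the value with the growing-hair covariate. Col1a1, Col1a2 and Col3a1 lie at -0.91 or lower in all 3, while Col11a1, Col18a1 and Col13a1 move toward 0 with the covariate.

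Genes that build, cleave or bind collagen give the setting of these levels. Of 32 genes of collagen synthesis and processing, 31 were tested, 7 were lower and 0 higher at an unadjusted p under 0.05, beside 6.45% lower and 6.62% higher among all genes tested, with a median log2 fold change of -0.23. Without 24 months replicates 1 and 2, 2 were lower and 2 higher and the median was -0.05. In that fit 3.62% of all genes were lower, and 898 of 18102 were higher. With the growing-hair covariate 6 were lower (background 8.75%) and the median was -0.37. Fkbp10, a foldase for procollagen, stood at 11.4, 12.7, 21.6, 18.8 and 20.8 CPM at 24 months, against 37.8, 27.9, 25.9, 22.4 and 23.3 CPM at 9 months, with no overlap. Serpinh1, the collagen chaperone HSP47, did not overlap either but was not among the 4 smallest p; it was singled out after its values were seen, at 82.8, 60.5, 291, 192 and 273 CPM at 24 months, against 365, 335, 313, 344 and 306 CPM at 9 months. Its low libraries were those of the type I chains. Adamts3, a procollagen peptidase, Plod2, a lysyl hydroxylase, and Pcolce, an enhancer of procollagen cleavage, had log2 fold changes of -2.49 ± 0.84 (SE), -0.98 ± 0.35 (SE) and -0.73 ± 0.31 (SE). For Adamts3 and Plod2 the highest libraries were 9 months replicates 4 and 5, with 2.05 and 2.92 CPM of Adamts3, against at most 0.862 CPM in the other 8 libraries.

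Of 11 fibril partners all were tested, 10 were negative and 2 lower at an unadjusted p under 0.05, with a median of -0.55 (51.6% negative and 6.45% lower among all genes tested). Without 24 months replicates 1 and 2 the median was -0.21 with 7 negative, and with the growing-hair covariate it was -0.84 with 11 negative. Sparc, a collagen-binding matricellular protein and procollagen chaperone, stood at 473, 284, 1161, 693 and 934 CPM at 24 months, against 1644, 1750, 2156, 1664 and 1482 CPM at 9 months. Its ages did not overlap, and the log2 fold change was -1.29 ± 0.33 (SE, 5 libraries a group; edgeR adjusted p = 0.163). Kera, a small proteoglycan of fibrils, and Comp, a cartilage and tendon protein, were highest in 9 months replicates 3 and 4. Kera had 4.26 and 4.31 CPM there and at most 0.931 CPM in the other libraries. Comp had 20.3 and 12.7 CPM there and at most 4.73 CPM in the other libraries. Bgn, the proteoglycan biglycan, had a log2 fold change of -0.55 ± 0.27 (SE).

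Of 11 genes of collagen cleavage, 2 were lower and 1 higher at an unadjusted p under 0.05, with a median of -0.24 and the same shares over all genes as above. The median was -0.10 without 24 months replicates 1 and 2 and -0.42 with the growing-hair covariate, with 2 lower and 2 higher in each. Over all genes, the first fit had 656 lower and 898 higher of 18102, and the second 1546 lower and 1456 higher of 17668. Mmp8, a collagenase of neutrophils, was the 1 gene higher with all libraries and no covariate. It was at 1.61, 0.432, 1.65, 0.596 and 0.409 CPM at 24 months, against 0.176, 0.233, 0.131, 0.210 and 0.209 CPM at 9 months. That gave a log2 difference of 2.26 ± 0.47 (SE, 5 libraries a group; edgeR adjusted p = 0.141). Its levels were low, and the ages did not overlap. Fap, a protease of activated fibroblasts, and Ctsk, a lysosomal collagenase, had log2 fold changes of -0.52 ± 0.16 (SE) and -0.82 ± 0.29 (SE), and Mmp2, a gelatinase, -0.31 ± 0.18 (SE). Of 11 collagen receptors 10 were tested, with 1 lower and 1 higher, beside 6.45% lower and 6.62% higher among all genes tested. Their median was -0.02, or 0.13 without 24 months replicates 1 and 2 and 0.11 with the growing-hair covariate. Lair1, an inhibitory receptor of leukocytes, had a log2 fold change of 1.03 ± 0.37 (SE), and Mrc2, which takes up collagen for breakdown, -0.61 ± 0.24 (SE). Adgrg1 and Ddr1, both collagen-binding receptors, had -0.37 ± 0.31 (SE) and -0.15 ± 0.22 (SE). Signals known to act on collagen genes (11 tested) had a median of -0.01, with 1 higher at an unadjusted p under 0.05, Tnf at 0.69 ± 0.27 (SE), beside 6.62% of all genes tested. That median was 0.13 with 3 higher without 24 months replicates 1 and 2, where 898 of all 18102 genes were higher. With the growing-hair covariate it was 0.23 with 0 higher, where 1456 of all 17668 genes were higher. Smad7, an inhibitor of TGF-beta signalling, stood at -0.71 ± 0.36 (SE), and the cytokines Ifng and Il6 at 1.12 ± 0.61 (SE) and 1.25 ± 0.86 (SE). These lists were described by counts, and what they contribute to the collagen levels was not tested.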

How the data were processed

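Per the labels, total RNA of mouse skin was sequenced in 5 libraries of 24 months and 5 of 9 months. The authors deposited raw read counts per Ensembl gene and RPKM values. The tools named in the submitters' processing notes are featureCounts 1.4.6-p4, STAR 2.4.1d and CASAVA 1.7, and the build is GRCm38; for their roles, strand setting and annotation release, the sources used here say nothing. The deposited RPKM values divide by 40 library totals in turn down the rows, 0.335 to 1.91 times the library's own total (residual SD of log2 4.63e-05 over 8455 genes, against 0.441 with own totals). Counts were therefore the main unit; the RPKM table gave gene lengths and an alternative with limma on log2(value + 0.1).

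Here, edgeR 4.0.16 (TMM, filterByExpr, robust quasi-likelihood F test, Benjamini-Hochberg over 17668 genes, threshold 0.05) was fitted to all genes and libraries. The fit was tested on simulated data. SE is the log2 fold change divided by the square root of F. CPM uses TMM-scaled totals; levels per kilobase divide it by gene length. DESeq2 1.42.0 and limma 3.58.1 were alternatives, with other scalings, no filter, left-out libraries and marker scores as covariates. Chain ratios were tested by two-sided exact permutation. Totals of 29324259 to 55976007 reads leave only the lowest genes limited by counting. No 2 libraries agreed within sampling noise. Of the 44 genes, 13 share exon bases with another gene, none over 10% of their length. The rule for named genes gave values per library for the 12 highest genes per kilobase, the 2 of smallest p in each class and any whose ages did not overlap, and up to 4 of smallest p in each other list. Members and lists were chosen with earlier results of these data known. P-values measure the spread between these libraries.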

Additional observations from a re-analysis of the deposited data

Results flagged for a closer look

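In each group of 5 libraries, the collagen levels and chain ratios were screened for a library set apart from the other 4 by more than 0.71 of the whole range, which chance gives in about 1 of 20 groups. Of 92 groups, 6 held such a library, all of them at 9 months and all on the high side. Col16a1 was 243 CPM in 9 months replicate 5, with 127 to 137 CPM in the others, and Col18a1 was 268 CPM there, with 61.7 to 118 CPM in the others. That library also had the highest sum of growing-hair markers, 32328 CPM, and of cell division markers, 487 CPM; their part in these levels was not tested beyond the covariate fit. In 9 months replicate 3, Col8a2 was 22.7 CPM (14.9 to 16.4 CPM in the others), Col4a4 was 23.0 CPM (10.5 to 14.0 CPM) and Col24a1 was 2.66 CPM (1.69 to 1.89 CPM). The count ratio of Col1a2 to Col1a1 was 1.11 in 9 months replicate 1, with 0.930 to 0.983 in the others.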

How the results depend on the processing

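The number of genes called over the whole table was 0 with edgeR, 916 with DESeq2, 3 with limma-voom and library quality weights, 1 without 9 months replicates 4 and 5, 1 with the growing-hair covariate and 0 to 8 over the leave-one-out fits, the 8 being without 24 months replicate 4. The median collagen log2 fold change lay between -0.57 and -0.23 over all alternatives. Chain ratio differences ranged, leaving out 1 library, over 0.21 to 0.35 for Col1a2/Col1a1, 0.23 to 0.47 for Col3a1/Col1a1, -0.08 to 0.04 for Col4a2/Col4a1, -0.33 to -0.20 for Col6a2/Col6a1 and -0.63 to -0.45 for Col6a3/Col6a1. Without 9 months replicates 4 and 5 the calls ended for Col1a2/Col1a1 (0.25), Col6a2/Col6a1 (-0.24) and Col6a3/Col6a1 (-0.40), and without 24 months replicates 1 and 2 likewise (0.13, -0.09 and -0.37). Fewer libraries allow only coarser permutation p-values.

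Of 880 values of single collagen genes under alternatives, 841 had the same sign and side of the threshold, 3 passed it (Col11a1, Col12a1 and Col8a2 with DESeq2) and 36 had the other sign, in 12 genes. With the growing-hair covariate these were Col13a1 (0.03), Col18a1 (0.03), Col20a1 (-0.03), Col23a1 (-0.07), Col25a1 (0.78), Col28a1 (0.25) and Col7a1 (-0.26). Without 24 months replicates 1 and 2 they were Col22a1 (0.09), Col25a1 (0.03), Col2a1 (-0.07) and Col6a5 (0.22), and without 9 months replicates 4 and 5 Col25a1 (0.64) and Col7a1 (-0.09). Deposited RPKM reversed Col11a2 (-0.10), Col19a1 (0.12), Col2a1 (-0.09) and Col6a5 (0.12), rescaled RPKM Col25a1 (0.02), library totals Col6a5 (0.01), and limma-voom Col25a1 (0.03, and 0.39 with quality weights). Leaving out 1 library, Col11a2 ranged over -0.11 to 0.17, Col19a1 over -0.15 to 0.07, Col22a1 over -0.53 to 0.09, Col25a1 over -0.36 to 0.51 and Col6a5 over -0.40 to 0.16. The cause was not tested. No paired analysis was possible because the replicate numbers only name the libraries in accession order.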
